A study of Mus musculus with 12 samples.

Results

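The 9 genes described here, Basp1, Plppr1, Sema5a, Epha7, Lingo2, Trio, Myo10, Ctnnd2 and Dync1i1, encode proteins of the growth cone, guidance ligands and receptors, and parts of the cytoskeleton of nerve cell processes. They were chosen by name, with earlier results of these data known, among the genes of 4 stretches of chromosomes 4, 6 and 15. The stretches come from earlier work on this table, where many rows elsewhere matched exons best after a displacement, which makes it uncertain what those rows count. The 9 genes are 9 of 56923 rows in the table and 9 of 1083 rows in the 4 stretches. The RNA came from sections of the brain of wild-type mice, held for 5 hours in artificial cerebrospinal fluid (aCSF), the salt solution that keeps slices alive, or in aCSF with added L-fucose. L-fucose is a sugar that cells add to the glycan chains of proteins and lipids. Each group had 6 libraries, and all 12 share the wild-type genotype, the tissue and the incubation in aCSF. Both groups use the same replicate numbers, and whether a shared number means a shared mouse is not said. Strain, age, the part of the brain sectioned, the dose of L-fucose and the number of mice are unknown here, and nothing says that libraries came from separate mice. P-values therefore measure the spread between these libraries, which may be technical.

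A growing neurite ends in a growth cone, a flat sheet of actin with finger-like filopodia, which is steered by ligands such as semaphorins and ephrins. Receptors on its surface pass these signals on to the actin cytoskeleton, while microtubule motors such as dynein carry cargo along the shaft. In the adult brain many of the same proteins shape dendritic spines and synapses. Sections hold neurons, glia, vessels and other cells, so fewer cells of a type and less RNA per cell cannot be told apart in these data.

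Values are normalized reads: each library's reads were scaled by a size factor that evens out depth. Library totals ran from 9191687 to 18563078 reads with a median of 11168285. aCSF 5 and aCSF 6 stood apart, with 41.9% and 44.8% of their counted reads on the mitochondrial genome, against 27.6% to 40.5% in the other libraries. They also had the fewest rows above 0, 14340 and 14856, against at least 16514 elsewhere. Results are therefore given with and without these 2 libraries. The 4 stretches had been chosen because levels there match exons, so that match is a description of the 9 genes and not a separate check. Among windows of 80 neighbouring rows displaced by up to 600 kb in steps of 500 bp, levels matched protein-coding exons best with no displacement for all 9 genes. Correlations across the rows of a window were 0.738 to 0.851 at that position, and the highest at more than 5 kb from it was 0.732. Displacements smaller than a step are not resolved.

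All 9 are protein-coding genes, and none shares exonic bases with another gene in the GENCODE M21 annotation of GRCm38. On chromosome 15 lie Basp1 (ENSMUSG00000045763) from 25363277 to 25413764, Myo10 (ENSMUSG00000022272) from 25622525 to 25813673 and Trio (ENSMUSG00000022263) from 27730651 to 28025848. Further along it are Ctnnd2 (ENSMUSG00000022240) from 30172593 to 31029341 and Sema5a (ENSMUSG00000022231) from 32244810 to 32696341. Chromosome 4 holds Epha7 (ENSMUSG00000028289) from 28813131 to 28967499, Lingo2 (ENSMUSG00000045083) from 35706647 to 36951747 and Plppr1 (ENSMUSG00000063446) from 49059273 to 49340259. Dync1i1 (ENSMUSG00000029757) is on chromosome 6 from 5725639 to 6028039. They differ widely in build. Lingo2 spans 1245101 bases of which 0.666% are exonic, while Trio has 60 separate exonic stretches that make up 7.93% of its span, and Basp1 has 3 in 50488 bases.

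Levels per length placed Basp1 far above the other genes. Basp1, a membrane protein of growth cones, had 11609 ± 1022 normalized reads per kb of exon (SD over 12 libraries). Dync1i1, the intermediate chain of the dynein motor that is typical of neurons, followed at 1079 ± 88.6 per kb, and the cadherin-binding Ctnnd2 at 733 ± 47.8 per kb. Basp1 was 10.8 ± 1.45 times as high per kb as Dync1i1 in the same library, with a lowest ratio of 8.71. Trio, a guanine nucleotide exchange factor, had 209 ± 16.7 per kb, the ephrin receptor Epha7 164 ± 22.9 and the filopodial motor Myo10 159 ± 22.4. Lowest were the guidance ligand Sema5a at 77.7 ± 17.2 per kb, the leucine-rich repeat protein Lingo2 at 53.6 ± 9.29 and Plppr1, a membrane protein that induces filopodia, at 42.7 ± 7.57. Adjacent genes in this order differed in the same direction in all 12 libraries from Basp1 down to Epha7, and again between Myo10 and Sema5a. Epha7 was above Myo10 in 8 of 12 libraries and Lingo2 above Plppr1 in 9 of 12, so these neighbours did not differ beyond their spread. Sema5a was above Lingo2 in 11 of 12, and the ranges of these genes overlapped, as did those of Trio and Epha7. The order was the same when the longest protein-coding transcript replaced all exons, with Basp1 at 12573 ± 1106 per kb and Plppr1 at 78.7 ± 14.0.

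**Figure D1:**
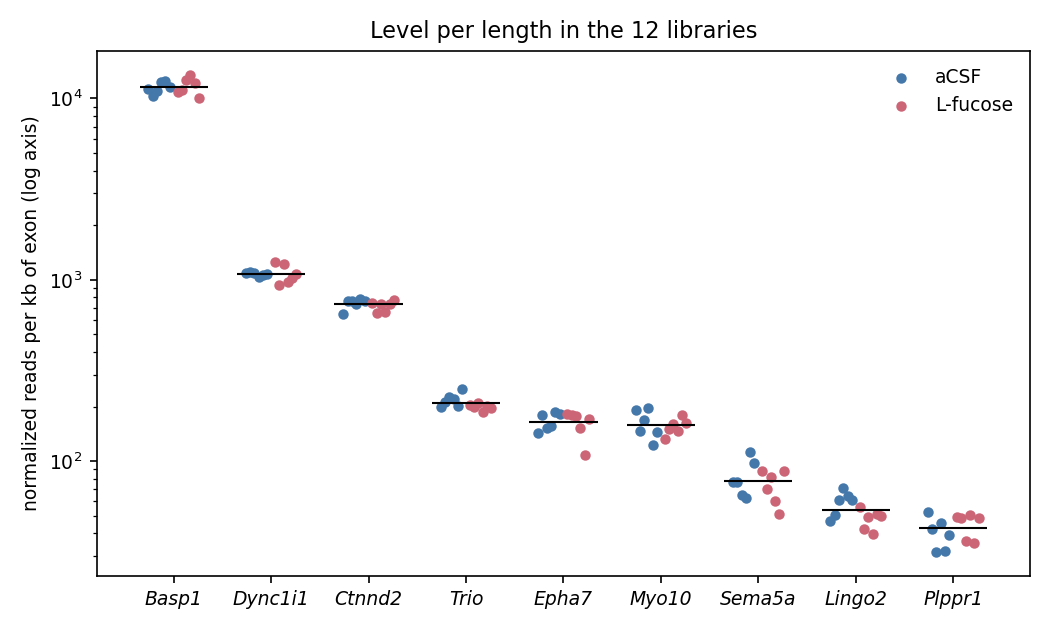
Normalized reads per kb of exon (log axis) for the 9 genes in the 6 aCSF and 6 L-fucose libraries, where each point is a library and the line is the mean of 12. Basp1 lies near 11609 per kb and the other genes between 1079 and 42.7.

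The RefSeq promoters of the gene with the highest level, Basp1, and of Sema5a and Epha7, the pair with the highest correlation between libraries, are shown for their base composition. Each is the 250 bases before the RefSeq start in GRCm38.p6, on the strand of the gene, at chr15:25413765-25414014 for Basp1 (minus strand), chr15:32244563-32244812 for Sema5a (plus) and chr4:28812881-28813130 for Epha7 (plus, the first of its listed starts). Capitals mark the GC box GGGCGG and the CCAAT box CCAAT on either strand; overlapping boxes run together.
Basp1: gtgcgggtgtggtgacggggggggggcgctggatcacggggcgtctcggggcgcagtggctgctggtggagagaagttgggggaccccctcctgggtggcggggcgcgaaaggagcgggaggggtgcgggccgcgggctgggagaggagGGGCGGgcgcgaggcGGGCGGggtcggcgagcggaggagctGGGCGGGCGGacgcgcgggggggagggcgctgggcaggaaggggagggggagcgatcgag
Sema5a: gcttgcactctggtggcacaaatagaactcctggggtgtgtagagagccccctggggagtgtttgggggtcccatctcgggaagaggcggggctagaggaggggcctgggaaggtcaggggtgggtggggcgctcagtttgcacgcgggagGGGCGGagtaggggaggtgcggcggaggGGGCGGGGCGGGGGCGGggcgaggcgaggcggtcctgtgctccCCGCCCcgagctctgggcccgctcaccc
Epha7: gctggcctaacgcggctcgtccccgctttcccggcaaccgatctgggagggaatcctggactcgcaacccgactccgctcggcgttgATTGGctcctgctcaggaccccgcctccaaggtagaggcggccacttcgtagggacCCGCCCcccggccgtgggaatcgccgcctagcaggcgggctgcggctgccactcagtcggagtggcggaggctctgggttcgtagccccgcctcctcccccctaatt
All are rich in G and C, at 78.8% for Basp1, 72.0% for Sema5a and 69.2% for Epha7, against a median of 52.4% over 32851 RefSeq promoter windows of this length. They hold 30, 17 and 25 CpG dinucleotides against a median of 6. The promoter of Dync1i1, second in level per length, holds 2. The GC box occurs 4 times in Basp1, 5 times in Sema5a and once in Epha7, and 32.7% of all windows have it. Epha7 also has a CCAAT box, as do 33.8% of all windows, while TATAAA, on either strand, is in none of these windows and in 12.4% of all. Matches are descriptions of these letters, not of binding.

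The study's single contrast sets sections given the sugar against sections left in plain aCSF. None of the 9 genes passed the test. Levels of Basp1, Ctnnd2, Dync1i1, Myo10 and Epha7 had log2 fold changes between -0.06 and 0.03, Trio and Sema5a were at -0.12 and -0.16, Plppr1 at 0.15 and Lingo2 at -0.29. With limma on log2(value + 1), 0 of 9 passed at an adjusted p under 0.05, as did 0% of all 10787 tested rows, and adjusted p for the 9 genes ran from 0.827 to 0.995. At an unadjusted p under 0.05 there was 1 of 9, Lingo2, which was lower in L-fucose. Among all tested rows 5.96% had such a p in either direction and 2.79% were lower. Among the tested rows of the 4 stretches 8.33% had it in either direction. Groups overlapped in all 9 genes, and did not overlap in 0.287% of all tested rows. edgeR and limma-voom also called 0 of the 9 genes, and so did DESeq2, which called 1 row in the whole table, Gabrr2, a GABA receptor subunit. The fold changes were negative in 7 genes and positive in 2, with a median of -0.05. The median was 0.01 over all tested rows and -0.05 over the 348 tested rows of the 4 stretches, where 60.6% were negative. Over the 9 genes the median was -0.01 without aCSF 5 and 6, with 5 of 9 negative and 0 at an unadjusted p under 0.05. Among all tested rows the median was then -0.01 too, and 11.2% had such a p.

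**Figure D2:**
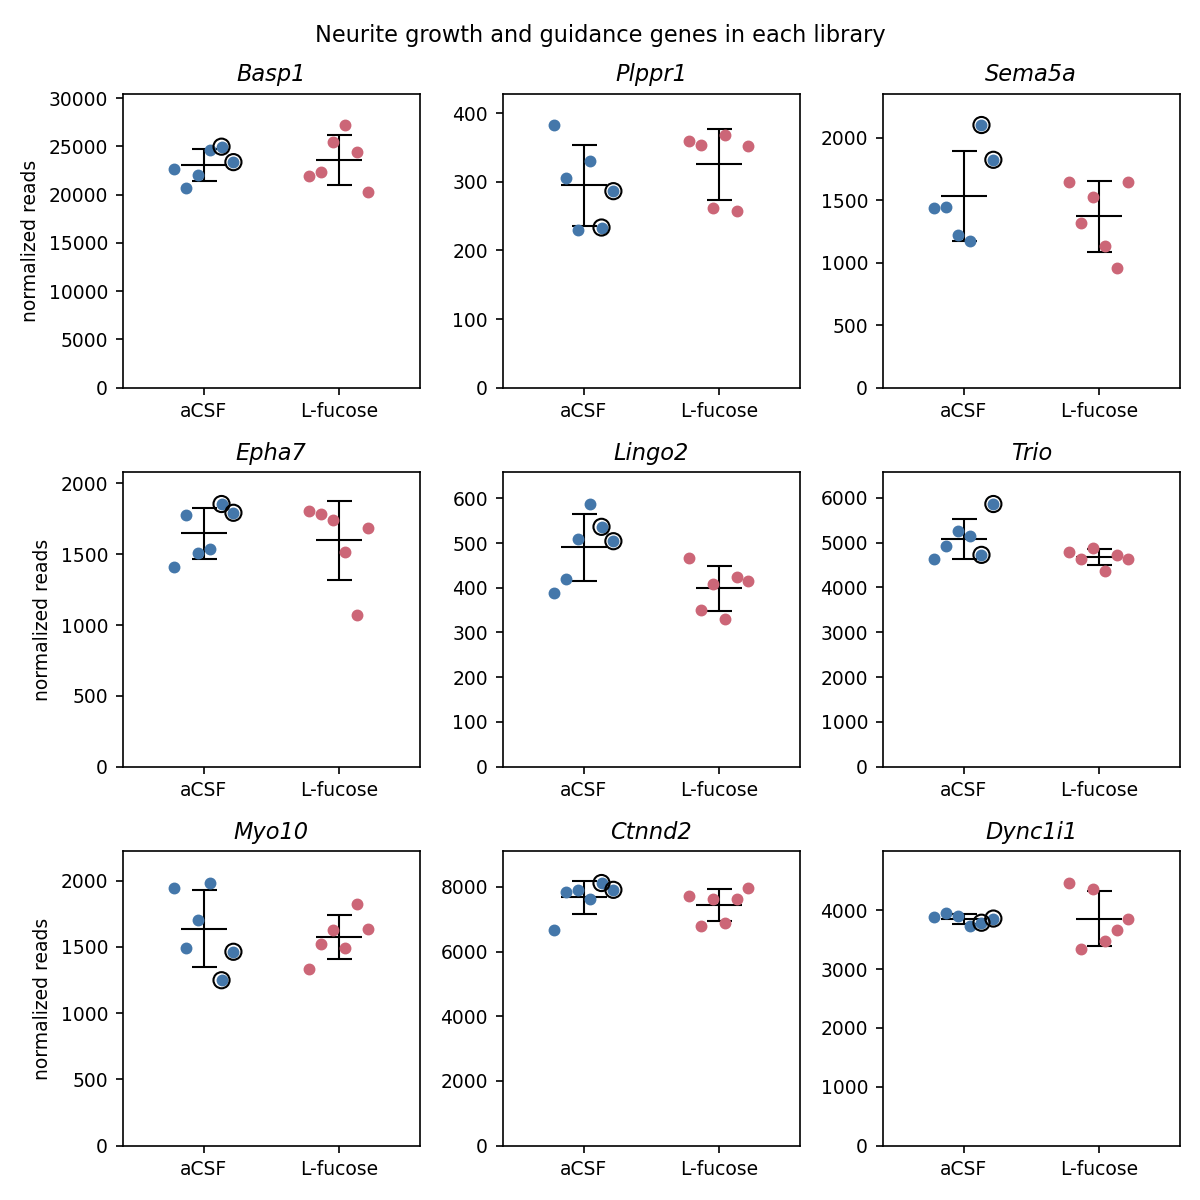
Normalized reads (vertical axis from 0) of each gene in the 6 aCSF and 6 L-fucose libraries, with the mean and SD as bars and circles around aCSF 5 and 6. The groups overlap in all 9 genes, and the L-fucose values of Lingo2 lie between 329.95 and 466.

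Basp1 binds acidic lipids at the inner face of the growth cone membrane. Its lowest, median and highest values were 20699, 23003 and 24959.5 in aCSF and 20303, 23343 and 27203 in L-fucose. L-fucose held both the highest and the lowest library, L-fucose 4 and 6, and 3 of its 6 libraries were above the aCSF median. The mean of L-fucose was 23588 ± 2549.6 and that of aCSF 23057 ± 1611 (SD over 6 libraries, as for all group means). limma put the log2 fold change at 0.03 (standard error 0.09, 95% interval -0.16 to 0.21), and the upper bound is a level 15.9% higher.

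Plppr1 belongs to a family of membrane proteins related to lipid phosphatases that promote outgrowth. It had 229.9, 296 and 383 as lowest, median and highest values in aCSF and 257, 353 and 369 in L-fucose. In L-fucose 4 libraries were at 353 to 369 and 2 at 257 and 262, and the aCSF libraries covered the whole of that range. Means were 326 ± 51.5 in L-fucose against 295 ± 58.6 in aCSF, and the log2 fold change was 0.15 (interval -0.17 to 0.47). Without aCSF 5 and 6 it was 0.07. With 208 to 581 recovered reads per library, Plppr1 had the fewest of the 9 genes.

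Sema5a is a transmembrane semaphorin with thrombospondin repeats, which acts as a guidance cue and on spines of granule neurons. Its lowest, median and highest values were 1174, 1438 and 2100.1 in aCSF and 959.7, 1421 and 1646 in L-fucose. The 2 highest of the 12 libraries were aCSF 5 and 6, and the lowest was L-fucose 5. Means were 1371 ± 284 in L-fucose and 1532 ± 360.5 in aCSF. The difference was -0.16 on the log2 scale (interval -0.47 to 0.16) and 0.04 (-0.25 to 0.32) without aCSF 5 and 6. Across all 12 libraries Sema5a correlated with the mitochondrial share at a Pearson r of 0.704 (permutation p = 0.0105, adjusted 0.378 over 36 relations) and a Spearman coefficient of 0.643 (permutation p = 0.0270, adjusted 0.357). Without aCSF 5 and 6, which were also the 2 farthest libraries, r was 0.458. It was 0.885 within the 6 aCSF libraries and 0.453 within the 6 of L-fucose. The part of the mitochondrial share in the Sema5a values was not tested.

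Epha7, a receptor tyrosine kinase for ephrin-A ligands, had 1413, 1656 and 1854 as lowest, median and highest values in aCSF. In L-fucose these values were 1071, 1715 and 1802. L-fucose 5 was the lowest of all 12 and the other L-fucose libraries lay within the aCSF range. Means were 1599.98 ± 279 in L-fucose and 1646 ± 183 in aCSF, with a log2 fold change of -0.06 (interval -0.31 to 0.20). This was 0.02 without aCSF 5 and 6 and 0.06 without L-fucose 5, so its sign depended on these libraries.

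Lingo2 is a transmembrane protein with leucine-rich repeats, a relative of the Nogo receptor partner Lingo1. In aCSF its lowest, median and highest values were 387, 506 and 587, and in L-fucose 329.95, 412 and 466. Each L-fucose library lay under the aCSF median, as in 7.92% of all tested rows (6.22% had each of them above it), but aCSF 1 and 2 lay within the L-fucose range. Means were 399 ± 50.5 in L-fucose against 490.4 ± 74.4 in aCSF, so that Lingo2 was at -0.29 on the log2 scale (standard error 0.13, interval -0.56 to -0.02). Its limma p was 0.0368 before and 0.827 after adjustment over all rows. Leaving out aCSF 5 and 6, the fold change was -0.24 with an unadjusted limma p of 0.106, while 11.2% of all rows then had an unadjusted p under 0.05.

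Trio, Myo10, Ctnnd2 and Dync1i1 act inside the cell. Trio relays signals from guidance receptors to actin, and its lowest, median and highest values were 4625, 5034 and 5859.6 in aCSF and 4362, 4684 and 4888 in L-fucose. Here too each L-fucose library was under the median of aCSF, yet aCSF 1 and 5 lay among them. Means were 4672 ± 181 in L-fucose and 5089 ± 447 in aCSF, which is -0.12 on the log2 scale (interval -0.28 to 0.05). Without aCSF 6, the highest library, it was -0.08.

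Myo10 carries integrins and guidance receptors to the tips of filopodia. Its values ran from 1249 through a median of 1597 to 1982 in aCSF and from 1333 through 1576.5 to 1822 in L-fucose. aCSF 5 was the lowest library and aCSF 4 and 1 the highest, so that aCSF enclosed the whole of the L-fucose range. Means were 1573 ± 165 in L-fucose and 1639 ± 289 in aCSF, with a log2 fold change of -0.05 (interval -0.29 to 0.19). Leaving out aCSF 5 and 6 moved this to -0.18 (interval -0.40 to 0.05), the largest shift among the 9 genes after that of Sema5a. Its correlation with the mitochondrial share was -0.635 (permutation p = 0.0254, adjusted 0.399 over 36 relations), with a Spearman coefficient of -0.643 (permutation p = 0.0280, adjusted 0.357), and r was -0.504 without aCSF 5 and 6. It was -0.838 within the aCSF libraries and 0.0742 within those of L-fucose. The part of that share in the Myo10 values was not tested.

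Ctnnd2, delta-catenin, links cadherins to the actin of dendrites. It had 6673, 7872 and 8119.8 as lowest, median and highest values in aCSF and 6781, 7624 and 7979 in L-fucose. aCSF 1 was the lowest of all, well under the other aCSF libraries at 7624 or more. Means were 7439.7 ± 484 in L-fucose and 7678 ± 517 in aCSF, or -0.05 on the log2 scale (interval -0.21 to 0.12). This was -0.085 without aCSF 1, -0.019 without L-fucose 2 and -0.013 without aCSF 5 and 6. Dync1i1 had 3725, 3876 and 3947 in aCSF against 3340.1, 3756 and 4463 in L-fucose, so the L-fucose libraries reached beyond aCSF on both sides. Its means were 3858 ± 462 in L-fucose and 3851 ± 80.9 in aCSF, and its log2 fold change was -0.0058 (interval -0.18 to 0.17).

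**Figure D3:**
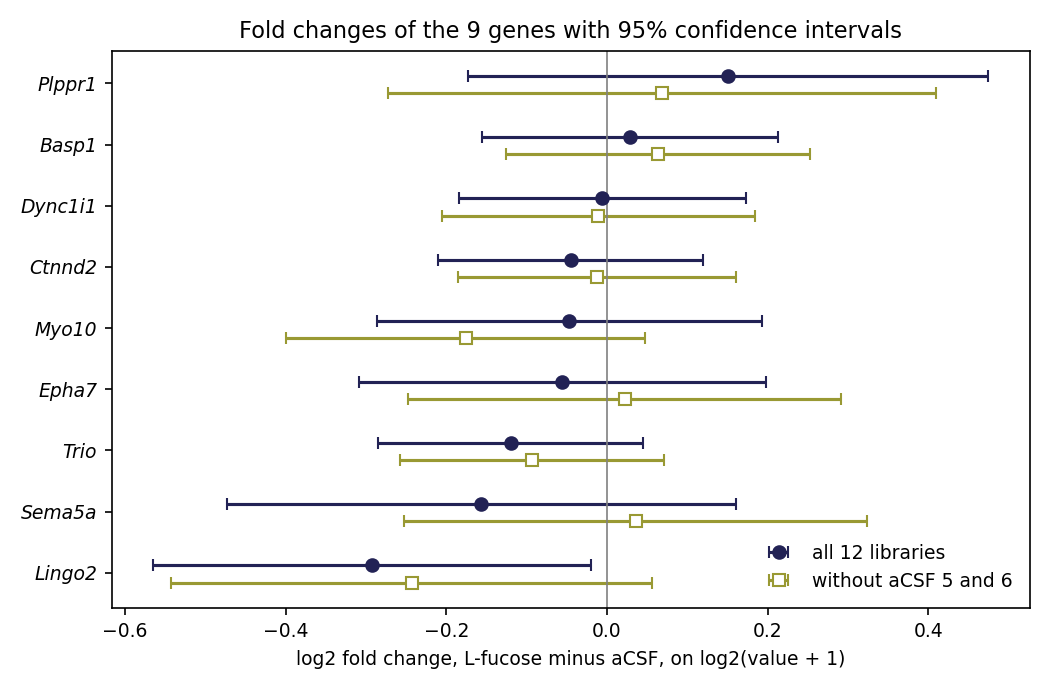
Difference of L-fucose from aCSF in log2(value + 1) (horizontal axis) with 95% confidence intervals, for all 12 libraries (filled circles) and without aCSF 5 and 6 (open squares). With all libraries Lingo2 alone has an interval that leaves out 0, from -0.56 to -0.02, and without aCSF 5 and 6 all 9 intervals include it.

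The intervals also say how large a change these libraries could have missed. In 8 of the 9 genes the 95% interval lay within 0.5 log2 units of no change on both sides, Lingo2 being the exception. The libraries varied by more than counting alone gives. The coefficient of variation within groups was 6.62% for Ctnnd2, 6.79% for Trio, 8.60% for Dync1i1 and 9.10% for Basp1, and between 14.0% and 22.2% for the others, highest in Sema5a. Read counting alone would give between 0.654% for Basp1 and 5.77% for Plppr1. Among the 234 tested rows of the 4 stretches with a mean of at least 200, the median within groups was 14.1%.

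Correlation from library to library was computed for the 36 pairs of the 9 genes, and 0 passed adjustment, with 6 at an unadjusted permutation p under 0.05. Sema5a and Epha7 were the closest, with a Pearson r of 0.786 (permutation p = 0.00155, adjusted 0.0558) and a Spearman coefficient of 0.776 (permutation p = 0.0046, adjusted 0.0828) over 12 libraries. Without L-fucose 5 and aCSF 5, the libraries farthest from the median of Sema5a, r was 0.624, and without aCSF 5 and 6 it was 0.783. Trio and Lingo2 had an r of 0.666 (permutation p = 0.0152, adjusted 0.137) and a Spearman coefficient of 0.685 (permutation p = 0.0169, adjusted 0.152). Their r was 0.749 without aCSF 3 and 6, the farthest for Trio, and 0.862 without aCSF 5 and 6. Ctnnd2 and Lingo2 had an r of 0.718 (permutation p = 0.00923, adjusted 0.137) and a Spearman coefficient of 0.601 (permutation p = 0.0433, adjusted 0.208), and r was 0.660 without aCSF 1 and L-fucose 2 and 0.649 without aCSF 5 and 6. Myo10 and Epha7 had the lowest, an r of -0.673 (permutation p = 0.0127, adjusted 0.137) and a Spearman coefficient of -0.818 (permutation p = 0.00201, adjusted 0.0724). That r was -0.714 without aCSF 4 and 5, and -0.613 without aCSF 5 and 6. Over all 36 pairs r ran from -0.673 to 0.786 with a median of 0.02. Both genes of a pair are read from the same libraries and share their depth and composition. The libraries of both groups were pooled, so a difference between groups that both genes share can add to r. For pairs of genes, r within a group was not computed.

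**Figure D4:**
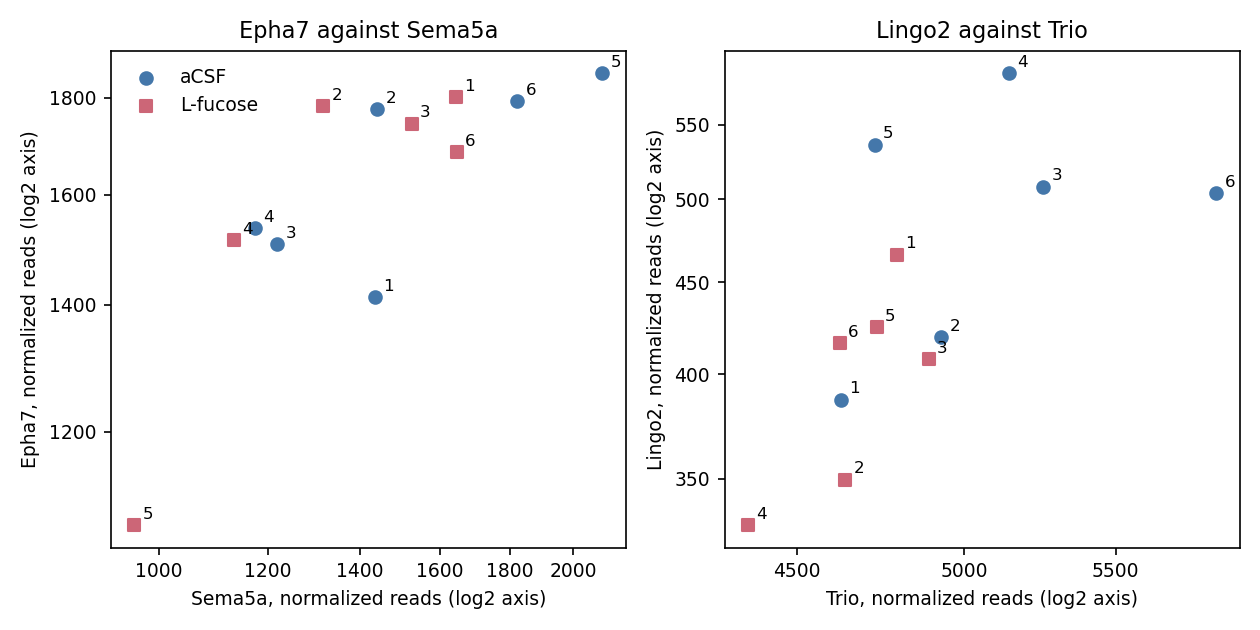
Normalized reads (log2 axes) of Epha7 against Sema5a and of Lingo2 against Trio, with 1 point per library, labelled by replicate number. L-fucose 5 is lowest in both Sema5a (959.7) and Epha7 (1071), and L-fucose 4 is lowest in both Trio (4362) and Lingo2 (329.95).

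Each gene was also set beside the other 347 tested rows of the 4 stretches, and the rows with the highest Pearson r over the 12 libraries are named, with no test because they were chosen as the highest. Sema5a was nearest to Ncbp1, a subunit of the nuclear cap-binding complex, at 0.918. Lingo2 was nearest to the cholesterol transporter Abca1 at 0.901 and then to Osgin2 at 0.859. For Myo10 the nearest row was Chd7, a chromatin remodeller, at 0.901, and for Epha7 it was Nxph1, a ligand of neurexins, at 0.852, with Sema5a after it. Trio was nearest to Ube2j1 at 0.834, Ctnnd2 to Pabpc1 at 0.792 and Basp1 to Chchd7 at 0.761. Plppr1 and Dync1i1 had no row as close, with Sdhaf3 at 0.734 and Srsf12 at 0.593. Without aCSF 5 and 6 these values were 0.848 for Sema5a with Ncbp1, 0.899 for Lingo2 with Abca1, 0.880 for Myo10 with Chd7 and 0.867 for Epha7 with Nxph1. These r values pool both groups too, so a shared difference between groups can add to them.

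Other genes of neurites, adhesion and the actin cytoskeleton lie in the same stretches. Of a list of 24, 23 were in the 4 stretches and tested, and 0 passed in limma in either direction over all rows, against 0% of all. At an unadjusted p under 0.05 there were 3 lower and 0 higher, against 5.96% of all tested rows and 8.33% of those in the stretches. The fold changes were negative in 18 genes and positive in 5, with a median of -0.10 (-0.05 without aCSF 5 and 6), beside -0.05 for the stretches as a whole. Of the tested rows of the stretches 60.6% were negative, and of all tested rows 48.0%. The smallest p values on the negative side were those of Rai14, an actin-binding protein, at -0.46 (interval -0.79 to -0.12, limma adjusted p 0.827), Tmeff1 at -0.24 and Mtdh at -0.25. Rai14 had 268 ± 37.8 in L-fucose against 372 ± 78.1 in aCSF. In Rai14, 6 of 6 L-fucose libraries were under the median of aCSF, as in 12.4% of the tested rows of the stretches. With aCSF 5 and 6 left out Rai14 was at -0.43, Tmeff1 at -0.16 and Mtdh at -0.11. In that setting 1 of the 23 genes was lower and 0 higher at an unadjusted p under 0.05, against 11.2% of all tested rows. On the positive side were Tmod1, which caps the slow end of actin filaments, at 0.12, the Hippo pathway kinase Stk3 at 0.14 and the neural transcription factor Pou3f2 at 0.11, each with an interval that included 0. Tmod1 was at 0.03, Stk3 at 0.12 and Pou3f2 at 0.21 without aCSF 5 and 6. Single libraries moved them too, Tmod1 to 0.075 without aCSF 5, Stk3 to 0.25 without aCSF 2 and to 0.092 without aCSF 1, and Pou3f2 to -0.023 without L-fucose 5. Ppp1r9a, the actin-binding neurabin of neurites and spines, had 5037 ± 499.9 in L-fucose and 5033 ± 572 in aCSF.

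**Figure D5:**
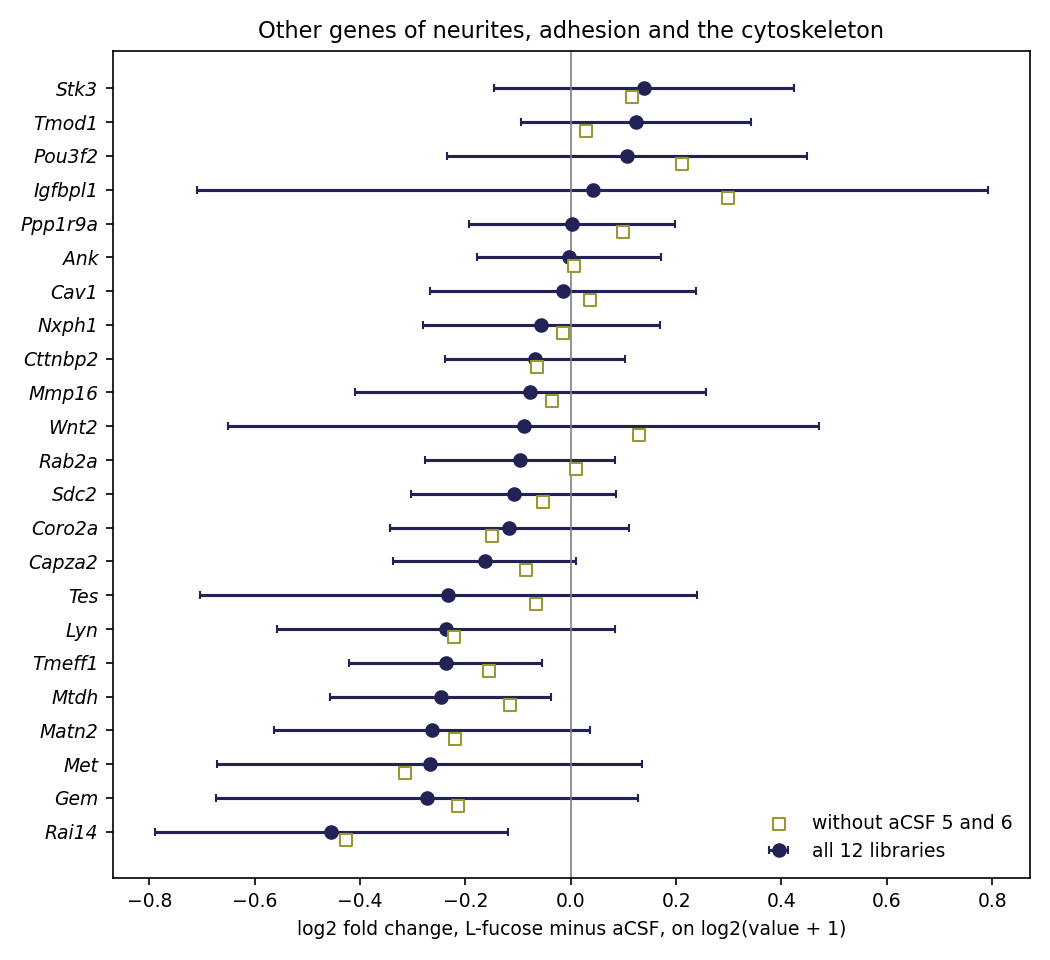
Difference of L-fucose from aCSF in log2(value + 1) (horizontal axis) for 23 other genes of neurites, adhesion and the cytoskeleton, with 95% confidence intervals from all 12 libraries (circles) and values without aCSF 5 and 6 (squares). The intervals of Rai14, Mtdh and Tmeff1 leave out 0, and 18 of the 23 values are negative.

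Rows named for the classical partners of these genes lie outside the 4 stretches, so their names may not tell which transcripts were counted, and only counts are given. Of 47 rows named for semaphorins, plexins, ephrins and their receptors, netrin and Slit pathway genes, 25 were tested, with 0 past the limma adjustment and 1 lower and 0 higher at an unadjusted p under 0.05. Of 20 rows named for growth cone proteins and outgrowth inhibitors 8 were tested, and 0 had an unadjusted p under 0.05. These counts at an unadjusted p under 0.05 became 1 higher and 3 lower, and 0, when aCSF 5 and 6 were left out. The shares over all tested rows were 5.96% with all libraries and 11.2% without these.

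Markers of other cells and regions were read from the same stretches. All 16 were tested and none was at 0 in every library, 0 passed in limma, and 1 was higher and 4 lower at an unadjusted p under 0.05 (2 and 6 without aCSF 5 and 6). Over all tested rows 5.96% had such a p in either direction, over the rows of the 4 stretches 8.33%, and over all rows without aCSF 5 and 6 11.2%. Of the tested rows of the 4 stretches 60.6% had a negative fold change, and of the 16 markers 10 were negative and 6 positive. Their median was -0.21 (-0.13 without aCSF 5 and 6), beside -0.05 over the tested rows of the 4 stretches. Their summed level ran from 14474 to 23775 normalized reads in aCSF and from 17368 to 24020.0 in L-fucose. Penk and Ptprz1, with fold changes of opposite sign, had the highest levels in that sum. The striatal enkephalin precursor Penk was at 0.61, the glial Abca1 and Ptprz1 at -0.48 and -0.30, and the cilium genes Spef2 and Capsl, found in ependyma, at -1.30 and -0.80. The lymphocyte receptor Il7r was low, at 11.3 ± 10.1 in L-fucose and 18.1 ± 4.71 in aCSF. Of these markers only Penk was tested for correlation with each of the 9 genes. Abca1 was the row nearest to Lingo2 in the untested comparison above, at an r of 0.901 (0.899 without aCSF 5 and 6). Pearson r with Penk was lowest for Myo10 at -0.55 (permutation p = 0.0628, adjusted 0.399) and Lingo2 at -0.53 (permutation p = 0.0776, adjusted 0.399). Without aCSF 5 and 6 these were -0.589 and -0.706. The highest was 0.297 for Epha7 (permutation p = 0.330, adjusted 0.6895). Adjustment covered 36 relations, each gene with the mitochondrial share, rows above 0, total reads and Penk. The part of these cells in the values of the 9 genes was not otherwise tested.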

How the data were processed

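The authors deposited a normalized signal per gene: read counts over a size factor of the library. In each library 100% of values are whole reads within 0.01 reads once that factor is undone, and these reads were used for count tests. Per the submitters' processing notes, the tools were DESeq2 2.11.40.8, featureCounts 2.0.3, HISAT2 2.2.1 and Trimmomatic 0.39, with build mm10. The annotation release and strand setting are not given here, so lengths from GENCODE M21 may differ from those counted. M21 named 52073 of 56923 rows.

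Testing covered the 10787 rows that reached 10 in 6 or more libraries. limma 3.58.1 (R 4.3.3) was fitted to log2(value + 1), a scale that understates changes of low rows, with the group as sole term and an intensity trend. P-values are two-sided, with Benjamini-Hochberg adjustment over all tested rows and a threshold of 0.05. Correlations were tested with 100000 permutations, two-sided. The alternatives used edgeR 4.0.16 and DESeq2 1.42.0 on recovered reads. The limma script was tested on simulated data. Python 3.11.15 did the rest.

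The genes, lists and settings were chosen with earlier results of these data known. The text names all 9 genes, the 3 other neurite genes with the smallest p each way, and the nearest rows by pattern. Neurite genes, markers and rows named beyond these were picked after their values were seen, and the per-transcript length was added then too. Protein sequences were not used here. Promoters are from RefSeq, with entries for all 9 genes. Another list of genes is not reported here.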

Additional observations from a re-analysis of the deposited data

Results flagged for a closer look

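Of 44 groups of 6 values examined (the 9 genes, 11 others named above, the mitochondrial share and the rows above 0), 4 had 1 library that lay far outside the rest. By chance about 5% of groups do.

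Ctnnd2 was 6673 normalized reads in aCSF 1 against 7624 to 8119.8 in the other aCSF libraries. L-fucose 4 had 764 for Tmod1, where its group otherwise had 919 to 999. Stk3 was 538 in aCSF 2 against 315 to 389 in the rest of its group. For Ptprz1, L-fucose 6 had 5845 and its group otherwise 4603 to 5025.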

How the results depend on the processing

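Over 24 alternatives, 0 of 216 values of the 9 genes passed the adjusted threshold (smallest adjusted p 0.519) and 14 changed sign. In the whole table, 0 rows passed under every alternative but DESeq2, which called 1. Rows at an unadjusted p under 0.05 numbered 643, against 1232 of 29235 with no filter, 1210 without aCSF 5 and 6, and 433 to 781 with 1 library left out. Without aCSF 5 and 6, Sema5a was at 0.036 and Epha7 at 0.022. Dync1i1 was at 0.0027 and 0.0014 in edgeR with TMM and RLE factors and 0.0013 in DESeq2. With 1 library left out, Dync1i1 ran from -0.0496 to 0.034, Basp1 from -0.0137 to 0.0707, Myo10 from -0.1214 to 0.0119, Epha7 from -0.0981 to 0.0558 and Pou3f2 from -0.0232 to 0.1868. Lingo2 ran from -0.36 to -0.24 over the 24 alternatives, 15 of them with an unadjusted p under 0.05. Replicate numbers are shared between groups, but same-numbered libraries did not deviate together (r from -0.168 to 0.17, 1 of 6 over 0.1), and 1 of 6 aCSF libraries correlated best with its own number. With the replicate block, 0 rows passed and 585 (limma) and 516 (edgeR) had an unadjusted p under 0.05. Lingo2 was then at -0.29, with an unadjusted p of 0.0605 in limma and 0.0631 in edgeR.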

Other observations

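Dync1i1 had nearly the same level in all 6 aCSF libraries and a wide spread in L-fucose. Its coefficient of variation was 2.10% in aCSF and 11.98% in L-fucose, and its SD was 5.71 times as large in L-fucose. Counting alone would give 1.61%. An exact permutation test of the absolute deviations of log2 values from the group medians, two-sided, gave p = 0.0108 for Dync1i1, or 0.0974 adjusted over the 9 genes. Trio had the opposite pattern, with 8.78% in aCSF and 3.88% in L-fucose (exact permutation p = 0.126, adjusted 0.435). This comparison of spreads was added after the values were seen, and no gene passed it.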
